A study of Saccharomyces cerevisiae with 6 samples.

Results

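The ATG genes encode the machinery of autophagy, and their transcripts were compared between SET2 KO and WT cells of budding yeast. The members were all protein-coding units of the deposited table with a gene name made of ATG and a number, which gave 28 genes out of 6692 protein-coding units and 18646 transcriptional units of all kinds. The rule used gene names and no measured value, although earlier results of these data were known when it was set. All cultures were of the laboratory strain W303. In the SET2 KO samples the SET2 gene had been deleted; the sample labels give the allele as set2::His3, whereas the methods of the study name a KanMX cassette. The WT samples carried an intact SET2 gene and were otherwise isogenic. Each group held 3 samples of total RNA, each from a separate colony grown in YPDA, a rich glucose medium with adenine, to an optical density of 0.6.

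In autophagy a cup-shaped membrane grows around cytoplasm, closes into an autophagosome, and fuses with the vacuole, where its contents are broken down. The kinase complex TORC1 holds the process at a low rate while nutrients are plentiful, and yeast cells also use part of the machinery in growth for the Cvt pathway, which delivers hydrolases to the vacuole. Several ATG genes are known to be kept at low transcript levels in rich medium by chromatin-linked repressors, among them Ume6 at ATG8, Pho23 at ATG9, and Rph1, a demethylase of the H3K36 mark, at ATG7 and other ATG genes. Set2 is the methyltransferase that places H3K36 methylation on transcribed genes.

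Of the 28 members, 27 had enough reads to be tested. The remaining one, ATG18, had 0 reads in every sample, because all 1642 bases of its unit are also covered by other annotated units, and reads that touch more than one unit were not counted. Most other units overlapped in part: 21 of the 28 shared bases with another unit, on either strand. Reads were counted without regard to strand, so antisense reads within a unit cannot be told apart from those of the gene. Counts were also taken over the whole unit, so transcripts that start within a gene cannot be told apart from full-length ones. Tested members held between 8 reads (ATG14 in SET2 KO sample 2) and 1471 reads (ATG2 in SET2 KO sample 3). Levels are given as normalized CPM, the counts per 1e6 reads of a library scaled by TMM, so that they are relative to each library and a shift in total RNA per cell cannot be told apart from them. Total counts lay between 5135226 and 22536840 per sample, and both extremes belonged to SET2 KO samples. The deleted gene matched the labels in all 6 samples, with 20, 9, and 32 reads on SET2 in SET2 KO and 435, 298, and 459 reads in WT.

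Among the ATG transcripts, ATG9 and ATG2 were higher in SET2 KO at an adjusted p below 0.05, and none was lower at that threshold. ATG9 was 1.53-fold higher and was the only member past both an adjusted p below 0.05 and a fold change above 1.5. ATG2 was 1.42-fold higher and passed the adjusted p alone. The count of 1 of 27 members past both thresholds (3.70%) lay close to the 3.57% found among all 5317 tested units. The count of 2 of 27 past the adjusted p alone (7.41%) lay close to the 6.24% of all tested units. Of the 27 members, 5 (18.5%) had an unadjusted p below 0.05 in edgeR, compared with 23.6% of all tested units. These shares were not tested. The 5 members were ATG2, ATG9, ATG15, ATG33, and ATG34. In DESeq2 the unadjusted p was not below 0.05 for ATG15 (0.069), ATG33 (0.058), and ATG34 (0.14).

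**Figure D1:**
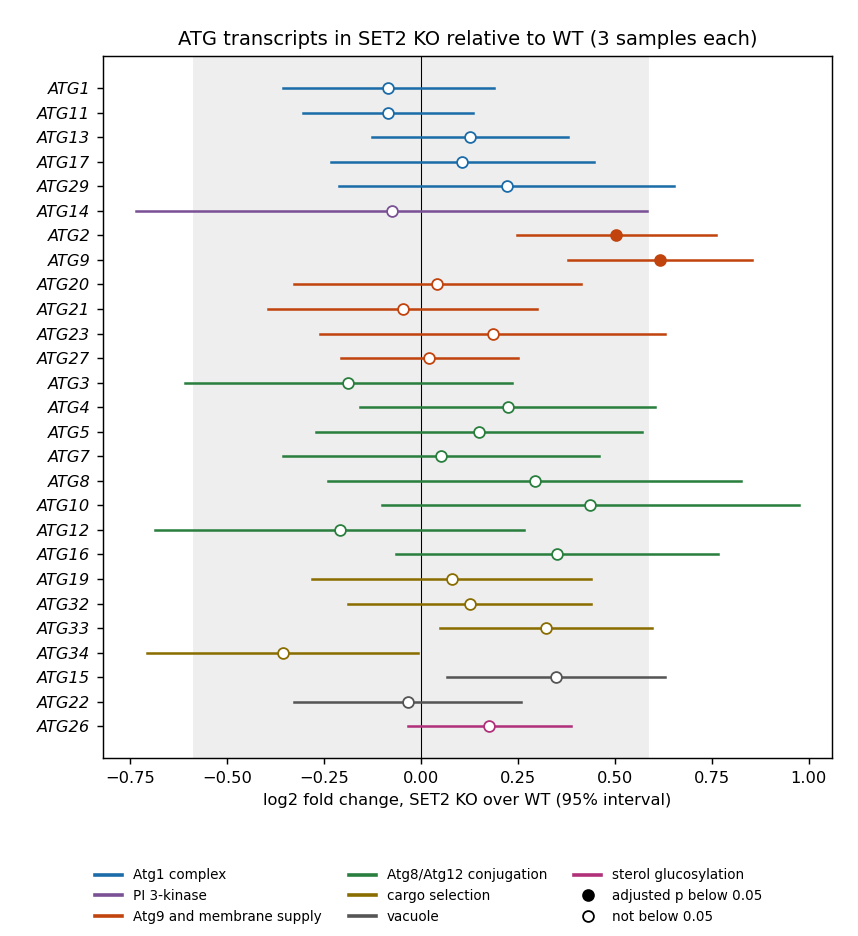
Each point is the log2 fold change of an ATG transcript, SET2 KO over WT, from edgeR's quasi-likelihood fit on 3 samples each, and each line its 95% interval; colours mark roles, filled points an adjusted p below 0.05, and the grey band fold changes below 1.5. ATG9 (0.62) and ATG2 (0.50) are the filled points, and the intervals of 22 of the 27 members include 0.

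The direction was less even. The log2 fold change was above 0 in 19 of 27 members (70.4%), compared with 49.5% of all tested units. The median over the members was 0.12, compared with -0.01 over the 5113 tested protein-coding units. With each sample left out in turn, the median of the members lay between 0.05 and 0.20. In 6 of 27 members (22.2%) all SET2 KO values lay above all WT values, which held for 14.1% of all tested units. In 1 member (3.70%), ATG34, all SET2 KO values lay below all WT values, compared with 13.8% of all tested units. These are descriptions of the members, with no test.

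ATG9 (YDL149W) lies on the plus strand of chromosome IV, and its unit spans 184896 to 187976 of sacCer3. It encodes the integral membrane protein of the small vesicles that seed the autophagosome, and the protein moves lipids between the leaflets of the membrane. ATG9 had 28.2, 25.3, and 29.7 normalized CPM in SET2 KO samples 1, 2, and 3, against 18.95, 18.1, and 17.7 in WT. All SET2 KO samples lay above all WT samples, with a gap wider than the spread within either group. The means were 27.7 ± 2.23 normalized CPM in SET2 KO and 18.2 ± 0.642 in WT (SD, n = 3 each). The log2 fold change was 0.62 (standard error 0.11, 95% interval 0.38 to 0.85, edgeR's quasi-likelihood test, Benjamini-Hochberg adjusted p = 0.0095). DESeq2 gave 0.61 and an adjusted p of 0.0033. The unit has 2788 bases of its own out of 3081; the rest is shared with NOP14 and CUT477 on the opposite strand, and reads there were not counted. The size of the change was steady, between 0.56 and 0.67 with any sample left out, but the call was not. The adjusted p from edgeR was 0.051 without SET2 KO sample 1, 0.090 without SET2 KO sample 3, and 0.061 without WT sample 3. It was 0.064 when every library was thinned to the total of SET2 KO sample 2.

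ATG2 (YNL242W) lies on the plus strand of chromosome XIV, from 191186 to 196114. With 4929 bases it is the longest member. Its product is a rod-shaped protein that passes lipids into the growing membrane and binds Atg9. ATG2 had 70.1, 54.8, and 64.4 normalized CPM in SET2 KO samples 1, 2, and 3, against 40.9, 47.2, and 46.0 in WT. Again the groups did not overlap, and the lowest SET2 KO value came from sample 2, the smallest library. The means were 63.1 ± 7.71 in SET2 KO and 44.7 ± 3.34 in WT (SD, n = 3 each), with a log2 fold change of 0.50 (standard error 0.12, 95% interval 0.25 to 0.76, edgeR adjusted p = 0.032). DESeq2 gave an adjusted p of 0.012. No other unit overlaps ATG2. The fold change lay between 0.42 and 0.58 with any sample left out. The edgeR adjusted p was 0.14 without SET2 KO sample 1, 0.14 without SET2 KO sample 3, 0.13 without WT sample 1, and 0.12 without WT sample 3. It was 0.052 with all libraries thinned.

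The bases just before the units of ATG9 and ATG2 are shown because these were the members past the adjusted p. Those before ATG8 are shown because its promoter is the classic example of repression in rich medium. Each run gives, 5′ to 3′ along the gene, the 250 bases that end at the base before the annotated unit, read from RefSeq's R64 assembly, whose coordinates are those of sacCer3. The windows are chrIV:184646-184895 (plus strand) for ATG9, chrXIV:190936-191185 (plus strand) for ATG2, and chrII:80768-81017 (minus strand) for ATG8. Capitals mark matches, on either strand, to GGCGGC (the core of the URS1 element bound by Ume6), TGACTC (Gcn4), GATAAG (the GATA factors Gln3 and Gat1), or AGGGG (the stress element, also bound by Rph1 and Gis1).
ATG9: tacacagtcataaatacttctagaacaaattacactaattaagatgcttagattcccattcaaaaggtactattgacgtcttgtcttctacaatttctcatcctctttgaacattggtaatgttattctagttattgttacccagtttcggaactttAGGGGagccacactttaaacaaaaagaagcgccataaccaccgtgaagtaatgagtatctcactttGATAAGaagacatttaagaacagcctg
ATG2: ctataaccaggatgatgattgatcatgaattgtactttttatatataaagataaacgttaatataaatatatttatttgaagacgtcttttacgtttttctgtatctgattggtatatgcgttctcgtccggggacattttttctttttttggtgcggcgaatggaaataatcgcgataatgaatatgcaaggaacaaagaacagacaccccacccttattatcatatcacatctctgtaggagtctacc
ATG8: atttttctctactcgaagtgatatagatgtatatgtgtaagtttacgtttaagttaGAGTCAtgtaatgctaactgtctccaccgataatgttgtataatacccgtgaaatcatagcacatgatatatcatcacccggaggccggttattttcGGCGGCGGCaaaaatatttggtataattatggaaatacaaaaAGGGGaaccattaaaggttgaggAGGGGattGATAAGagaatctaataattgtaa

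The window of ATG8 held all 4 motifs. GGCGGC was matched in overlapping copies within the run GGCGGCGGC, from 97 to 89 bases before the unit, and AGGGG was matched at separate places that begin 55 and 32 bases before it. The window of ATG9 held AGGGG, beginning 93 bases before the unit, and GATAAG, beginning 27 bases before it. The window of ATG2 held no match. Windows were available for 24 of the tested members, which had an annotated leader before the coding sequence, and for 4621 tested protein-coding units in all. GGCGGC or its reverse complement was found before 2 of the 24 members (8.33%), ATG8 and ATG19, and before 4.35% of all windows. TGACTC was found before 3 members (12.5%) and 6.82% of all windows. GATAAG was found before 6 members (25.0%; ATG1, ATG8, ATG9, ATG14, ATG29, and ATG33) and 11.8% of all windows. AGGGG was found before 7 members (29.2%) and 18.9% of all windows. A match to these letters is a description of the sequence and does not show that a factor is bound.

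**Figure D2:**
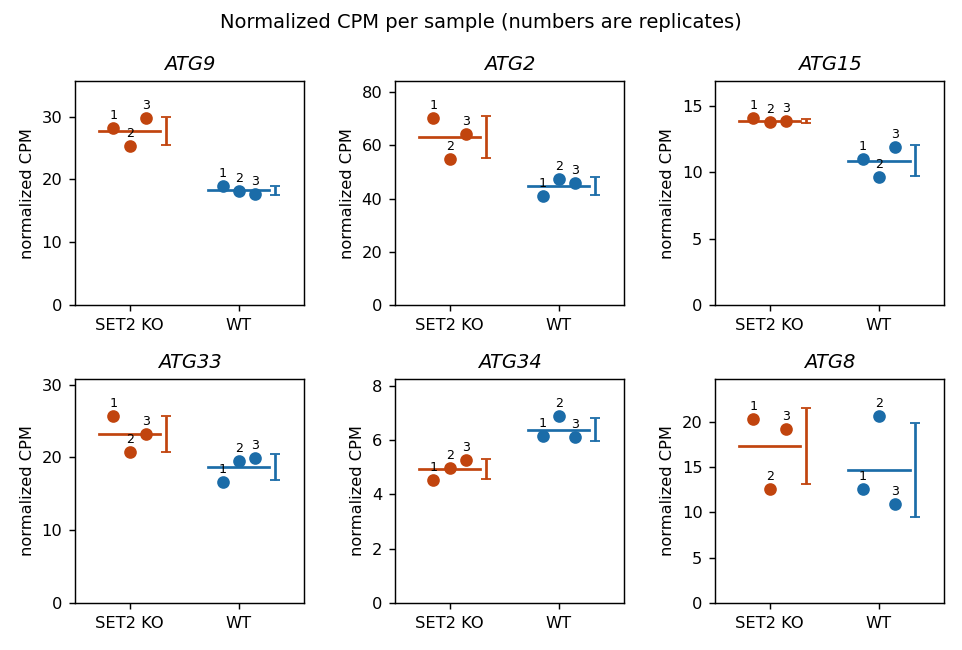
Normalized CPM of ATG9, ATG2, ATG15, ATG33, ATG34, and ATG8 in each SET2 KO and WT sample, with the replicate number above each point, the mean as a line, and the SD as an error bar (n = 3 each). The groups are apart for the first 5 genes, whereas for ATG8 WT sample 2 (20.6) lies above every SET2 KO sample.

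The other members that serve the supply of membrane were not called. ATG27 and ATG23, which both act in the traffic of Atg9 vesicles, had log2 fold changes of 0.02 and 0.18. ATG27 had 57.4, 68.4, and 61.9 normalized CPM in SET2 KO and 65.9, 59.4, and 59.0 in WT, with a 95% interval of the log2 fold change from -0.21 to 0.25. For ATG27 a change of 1.5-fold thus lay outside the interval. ATG20, a sorting nexin, and ATG21, a phosphoinositide-binding protein of the Cvt pathway, had log2 fold changes of 0.04 and -0.05. ATG21 had 24.0, 15.1, and 21.7 normalized CPM in SET2 KO and 19.5, 23.6, and 21.3 in WT, so that SET2 KO sample 2 was the lowest of all 6 and the groups overlapped.

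Transcripts of the Atg1 kinase complex, which starts autophagosome formation, showed no call among the 5 members present. Their log2 fold changes lay between -0.09 and 0.22, and 0 of 5 had an unadjusted p below 0.05 in edgeR or DESeq2. ATG1, the kinase itself, had 51.7, 40.7, and 51.4 normalized CPM in SET2 KO and 45.8, 55.9, and 51.9 in WT. Its log2 fold change was -0.08, with a 95% interval from -0.36 to 0.19. ATG11, the scaffold of selective autophagy, was the lowest of the complex, with 25.0, 28.3, and 26.0 in SET2 KO and 27.7, 28.5, and 27.6 in WT (log2 fold change -0.09, 95% interval -0.31 to 0.14). For both genes the values of the groups overlapped. ATG29, a partner of Atg17, had the highest log2 fold change of the complex (0.22, 95% interval -0.21 to 0.65). It had 6.50, 5.98, and 6.61 normalized CPM in SET2 KO and 4.35, 7.08, and 5.26 in WT. Only 642 of the 1841 bases of its unit lie outside SET6, which is annotated on the opposite strand. The others were ATG13, the regulatory subunit that TORC1 phosphorylates (0.13), and ATG17, the scaffold used in starvation (0.11). ATG14, which directs the phosphatidylinositol 3-kinase complex to the site of assembly, was the member with the fewest reads, between 8 and 39 per sample. ATG14 had 1.34, 1.59, and 1.71 normalized CPM in SET2 KO and 1.11, 1.87, and 1.97 in WT, which overlapped. Its log2 fold change was -0.08, with a 95% interval from -0.74 to 0.58.

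The conjugation system joins the ubiquitin-like proteins Atg8 and Atg12 to a lipid and to Atg5. All 8 of its genes were tested, and 0 passed the adjusted p or had an unadjusted p below 0.05 in edgeR or DESeq2. Their log2 fold changes spread from -0.21 (ATG12) to 0.44 (ATG10). ATG10, the E2-like enzyme for Atg12, had 4.23, 2.79, and 2.89 normalized CPM in SET2 KO and 2.05, 2.75, and 2.5001 in WT. The groups did not overlap, but SET2 KO sample 2 and WT sample 2 were nearly level (95% interval of the log2 fold change -0.10 to 0.98, edgeR adjusted p = 0.31). ATG12 had 5.57, 3.59, and 5.25 in SET2 KO and 5.04, 7.37, and 5.13 in WT, with an interval from -0.69 to 0.27. ATG16, which binds the Atg12-Atg5 conjugate, and ATG4, the protease that matures and releases Atg8, had log2 fold changes of 0.35 and 0.22. ATG5 (0.15), the E1-like enzyme gene ATG7 (0.05), and the E2-like enzyme gene ATG3 (-0.19) made up the rest.

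ATG8, the most widely used marker of autophagy, varied more within the groups than between them. It had 20.3, 12.6, and 19.2 normalized CPM in SET2 KO samples 1, 2, and 3, against 12.6, 20.6, and 10.9 in WT. The highest and the lowest value both came from WT samples. The log2 fold change was 0.29 (95% interval -0.24 to 0.83, edgeR adjusted p = 0.50). Leaving out WT sample 2 gave 0.61 and an adjusted p of 0.043, the only call that leaving out a sample added among the members. Leaving out WT sample 3 gave 0.10. Over all units, the number past the adjusted p was 332 with all samples and 788 without WT sample 2.

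The same samples stood out in most conjugation genes. SET2 KO sample 1 was the highest of its group in 7 of the 8 genes and SET2 KO sample 2 the lowest in 7 of 8. In WT, sample 2 was the highest in 7 of 8 and sample 1 the lowest in 7 of 8. Over all 27 tested members, SET2 KO sample 2 was the lowest of its group in 20 and WT sample 2 the highest of its group in 18. Such ranks were not counted over all tested units, so they are not shown to be particular to these genes. Summed over the members, the level was 695, 593, and 683 normalized CPM in SET2 KO samples 1, 2, and 3 and 566, 676, and 578 in WT. Thus WT sample 2 lay within the range of the SET2 KO samples. The share of all counts taken by SCR1, the RNA of the signal recognition particle, moved with these samples. It was 9.38%, 6.798%, and 7.72% in SET2 KO and 6.85%, 9.93%, and 7.24% in WT.

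**Figure D3:**
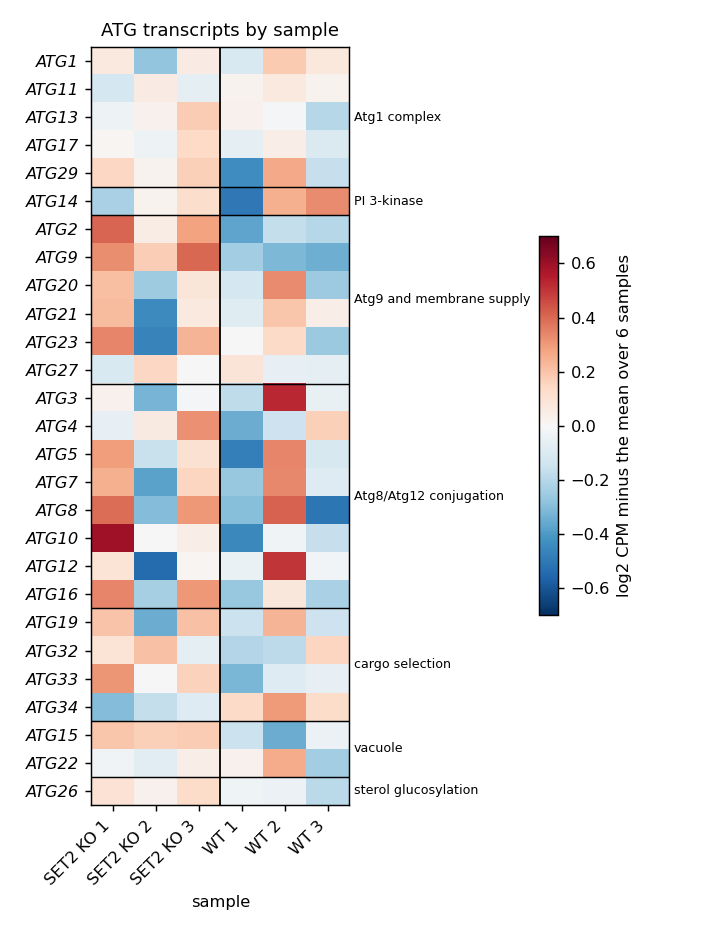
Heat map of the 27 tested ATG transcripts (rows, grouped by role) in the 6 samples (columns); colour gives log2 normalized CPM minus the mean over the samples. ATG9 and ATG2 separate the groups, whereas conjugation genes such as ATG7 are high in SET2 KO sample 1 and WT sample 2 and low in SET2 KO sample 2 and WT sample 1.

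Genes that report on the growth state of a culture were listed by known role, and 13 of 16 had enough reads; GRE1, ADH2, and YGP1 had at most 111 bases of their own and were not tested. Summed over these genes, the level was 2418, 1864, and 2151 normalized CPM in SET2 KO samples 1, 2, and 3 and 1686, 2052, and 1762 in WT, in the same order within each group as the sum of the ATG members. HXK1, a hexokinase gene repressed by glucose, was 1.82-fold higher in SET2 KO (edgeR adjusted p = 0.042), and SSA3, a stress-induced chaperone, was 1.67-fold higher (edgeR adjusted p = 0.010). The other reporters tested, 11 in number, did not pass, and 6.24% of all tested units did. An unadjusted p below 0.05 in edgeR was found for 8 of the 13, compared with 23.6% of all tested units. Of these, DAL80 was lower in SET2 KO and the rest were higher. They include HSP26 (2.24-fold) and DDR2 (2.11-fold), whose groups overlapped (edgeR adjusted p = 0.11 for each). The share was not tested. The median log2 fold change of the list was 0.61, with 10 of 13 above 0. Those below 0 were GAP1 (-0.14), MEP2 (-0.18), and DAL80 (-0.69, edgeR adjusted p = 0.17), all of which the sum includes. For DAL80 all SET2 KO values lay below all WT values. The number of reporters past the adjusted p was between 0 and 9 with single samples left out, 9 being without WT sample 2. It was 0 with the replicate number as a block. The part of the growth state, and of the library that SCR1 marks, in the ATG values was not tested.

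The factors that choose cargo gave no call. ATG34, a receptor for alpha-mannosidase, had 4.54, 4.98, and 5.25 normalized CPM in SET2 KO, against 6.15, 6.88, and 6.12 in WT. All SET2 KO samples lay below all WT samples, with a log2 fold change of -0.36 (95% interval -0.71 to -0.01, edgeR adjusted p = 0.20). ATG34 lies on chromosome XV at 165610 to 166952, next to its relative ATG19, the receptor of the Cvt pathway, at 168434 to 170082 on the same strand. ATG19 had 36.9, 25.3, and 37.1 in SET2 KO and 28.9, 37.9, and 29.1 in WT (log2 fold change 0.08). There were 12.3, 19.7, and 14.1 reads on ATG34 per 100 reads on ATG19 in SET2 KO, and 21.2, 18.1, and 21.0 in WT, so this ratio overlapped between the groups. ATG33, a mitochondrial membrane protein needed for full mitophagy, had 25.7, 20.7, and 23.2 normalized CPM in SET2 KO and 16.6, 19.5, and 19.9 in WT. The groups of ATG33 did not overlap, with a log2 fold change of 0.32 (95% interval 0.05 to 0.59), but the edgeR adjusted p was 0.15. ATG32, the receptor of mitophagy, had a log2 fold change of 0.12.

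The vacuolar steps were represented by ATG15 and ATG22. ATG15, the lipase that opens autophagic bodies inside the vacuole, had 14.03, 13.8, and 13.8 normalized CPM in SET2 KO, against 11.01, 9.63, and 11.9 in WT. The SET2 KO samples were nearly equal and all above WT, with a log2 fold change of 0.35 (95% interval 0.07 to 0.63, edgeR adjusted p = 0.13). ATG22, a vacuolar membrane protein of amino acid efflux, had 33.8, 32.7, and 35.6 in SET2 KO and 35.1, 41.2, and 29.1 in WT, which overlapped (log2 fold change -0.03). ATG26, a sterol glucosyltransferase, had 62.2, 59.2, and 63.3 normalized CPM in SET2 KO and 56.7, 56.4, and 50.8 in WT. Its groups did not overlap, but by a small margin, with a log2 fold change of 0.18 (edgeR adjusted p = 0.29).

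Precision differed among the members. The 95% intervals had a median half-width of 0.35 on the log2 scale. In 13 of the 27 tested members the whole interval lay inside a change of 1.5-fold in either direction. The interval held both 0 and a change of that size for ATG3, ATG4, ATG8, ATG10, ATG12, ATG14, ATG16, ATG23, and ATG29. For these members neither could be told from the other with these samples. At 3 samples against 3, the smallest p of an exact permutation test on a single gene would be 0.1.

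Levels were compared between genes per kilobase of the bases on which reads could be counted. ATG27 and ATG5 stood above the rest, with 70.1 and 67.4 normalized CPM per kilobase in SET2 KO and 68.9 and 61.3 in WT. The next gene, ATG33, had 25.9 in SET2 KO and 20.9 in WT. The kinase gene ATG1 (14.6 in SET2 KO and 15.6 in WT) and ATG8 (20.1 and 17.1) were in the upper part, and the lowest were ATG23 (4.05 and 3.75) and ATG14 (3.05 and 3.26). ATG9 took place 15 of 27 in SET2 KO and place 20 in WT. In the deposited FPKM, which divide by the full unit, ATG29 fell to place 26 in WT, compared with place 16 per countable kilobase, since most of its unit cannot be counted. Across the 27 members, Spearman's rho between the log2 fold change and the unit length was 0.07, and between the log2 fold change and the level per kilobase -0.01. Across the 5113 tested protein-coding units, rho with length was -0.06. Genes are not independent replicates, and these values are given as a description.

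**Figure D4:**
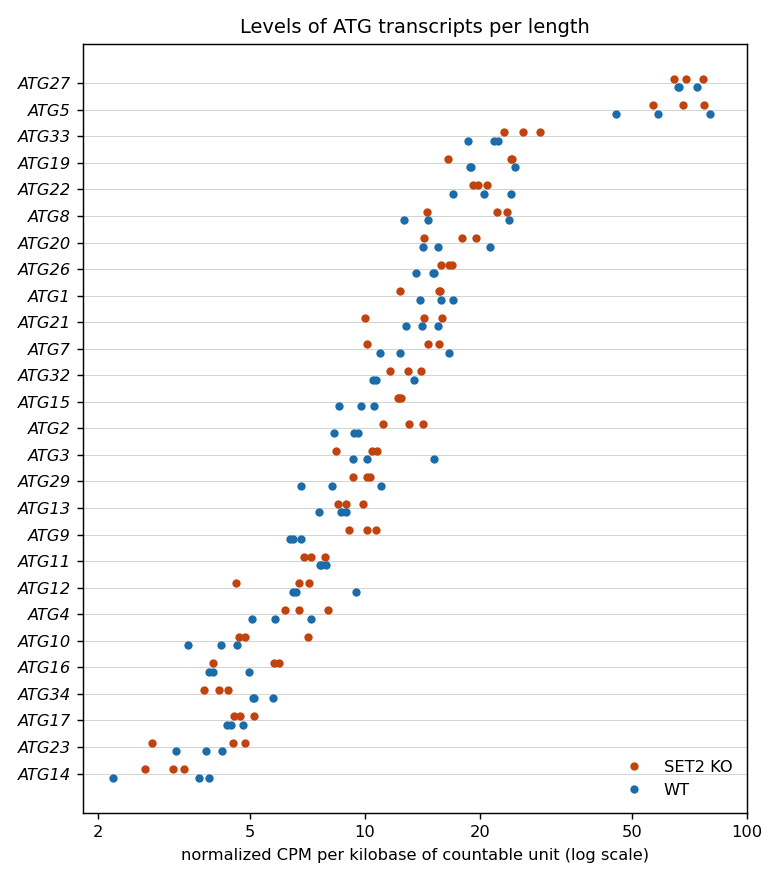
Normalized CPM per kilobase of countable unit (log axis) for the 27 tested ATG transcripts, ordered by their mean over the 6 samples, with one point per SET2 KO and WT sample. ATG27 and ATG5 lie highest and ATG14 lowest, and the points of the groups are apart for ATG9 and ATG2 but overlap for most genes.

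The table lists a further 11 genes under older or systematic names that RefSeq now calls ATG, and 10 of these had enough reads. In edgeR 0 passed the adjusted p and 1 had an unadjusted p below 0.05 (23.6% of all tested units), and in DESeq2 0 passed. The median log2 fold change was 0.10. ICY2 (ATG41), which acts in Atg9 traffic, had the largest, 0.60, but its samples were far apart. It had 225, 97.8, and 169 normalized CPM in SET2 KO and 61.5, 186, and 80.6 in WT (95% interval -0.26 to 1.46). As in ATG8, SET2 KO sample 1 and WT sample 2 were the highest of their groups. YBR139W (ATG42), a vacuolar carboxypeptidase, had a log2 fold change of 0.34, with SET2 KO samples all above WT (edgeR adjusted p = 0.10).

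Autophagy also needs proteins that the table lists under names other than ATG. Of 18 such genes, which include SNX4 and VPS30 from the list of renamed genes, for the phosphatidylinositol 3-kinase, vesicle traffic, and fusion with the vacuole, 0 passed the adjusted p in edgeR or DESeq2, and 2 had an unadjusted p below 0.05, as did 23.6% of all tested units. The 2 genes were MON1 (log2 fold change 0.42, edgeR adjusted p = 0.067) and CCZ1 (0.41, edgeR adjusted p = 0.13), which encode the partners of the exchange complex that activates the vacuolar GTPase Ypt7. The median of the list was -0.01. Of 11 genes for vacuolar hydrolases and their cargo, 9 were tested, 0 passed in edgeR or DESeq2, and 1 had an unadjusted p below 0.05 (23.6% of all tested units), namely PRB1, vacuolar proteinase B (0.38, edgeR adjusted p = 0.14).

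In the list of TORC1, its regulators, and linked kinases, 3 of 19 tested genes passed the adjusted p, all higher in SET2 KO. Of all tested units, 6.24% passed (238 higher and 94 lower of 5317). The share of the list was not tested against that of all units. NPR3 and IML1 encode subunits of the complex that restrains TORC1 when amino acids are short. NPR3 had 45.4, 38.1, and 40.8 normalized CPM in SET2 KO, against 26.3, 24.3, and 24.4 in WT (log2 fold change 0.73, edgeR adjusted p = 0.0038). IML1 had 60.6, 69.2, and 65.0 in SET2 KO, against 51.4, 49.2, and 47.4 in WT (0.39, edgeR adjusted p = 0.041). NPR2, the third subunit of that complex, had a log2 fold change of -0.19 (edgeR adjusted p = 0.32). RIM15, a kinase of entry into the resting state, had 132, 107, and 122 in SET2 KO, against 79.7, 75.0, and 85.9 in WT (0.59, edgeR adjusted p = 0.012). For each of the 3 genes the groups were apart. The median of the list was nonetheless -0.10, and TOR1 itself had a log2 fold change of -0.02. With single samples left out, between 1 and 4 genes of the list passed, 1 without SET2 KO sample 1 or 3, and 2 passed with every library thinned. With the replicate number as a block, 1 passed.

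Among 13 tested regulators of ATG transcription, 1 passed the adjusted p and was lower in SET2 KO, a count close to the 6.24% of all tested units that passed. GLN3, an activator that TORC1 keeps in the cytoplasm, had 25.4, 26.1, and 26.6 normalized CPM in SET2 KO, against 40.5, 32.9, and 37.4 in WT, without overlap (log2 fold change -0.50, edgeR adjusted p = 0.026). It did not pass without SET2 KO sample 1, SET2 KO sample 3, WT sample 1, or WT sample 3. Nor did it pass with every library thinned or with the replicate number as a block. The repressors of ATG genes had values on both sides of 0. Log2 fold changes were -0.19 for UME6, -0.04 for RPH1, and 0.28 for PHO23, and the edgeR adjusted p was at least 0.38 for each.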

How the data were processed

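RNA-seq was analysed for 3 SET2 KO and 3 WT samples. The authors mapped 76-nt reads to sacCer3 with tophat, kept uniquely mapped reads, and deposited a table of counts for transcriptional units. The counting (summarizeOverlaps) ignored strand and dropped reads on more than one unit. Versions in the submitters' processing notes include TopHat2 2.1.0 and R 3.2.3. The authors also deposited FPKM values, used here only for ranks of level. Columns with the authors' own DESeq2 comparison (fold changes, P-values) were not used.

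Counts were tested with edgeR 4.0.16 in R 4.3.3 (filterByExpr, TMM, glmQLFit, glmQLFTest, no block), adjusting p over 5317 units by the Benjamini-Hochberg method. The standard error of a log2 fold change is its size over the root of F, and 95% intervals use the degrees of freedom of the fit. DESeq2 1.42.0, other normalizations, no filter, thinning, the replicate block, and single samples left out were alternatives. Tables and figures used Python 3.11.15, pandas 2.3.3, and matplotlib 3.10.9. Both fits were tested on simulated data. Total counts per sample (5135226 to 22536840) limit precision for units with few reads. P-values rest on the spread between colonies, with the variance of each unit moderated by that of all tested units (10.1 degrees of freedom for the members). Windows and motifs came from RefSeq R64, in which 99.63% of matched genes lay inside their unit.

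Every member is accounted for. Values per sample are given for members past the adjusted p or with an unadjusted p below 0.05, for the extremes of each role, and for ATG1, ATG8, ATG19, and ATG27, which were chosen after their values were seen. List genes are named when past the adjusted p, or, where none is, when the largest in size, and the others named were chosen after their values were seen. Members and lists were chosen with earlier results of these data known.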

Additional observations from a re-analysis of the deposited data

How the results depend on the processing

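SET2 and the median of the ATG members kept their direction in all 13 alternatives. The counts of ATG genes past both thresholds (1) and past the adjusted p alone (2) were unchanged with DESeq2, its size factors used in edgeR, upper quartile scaling, no filter, and protein-coding units alone. Both counts were 0 with libraries thinned to the smallest total, where ATG9 and ATG2 had edgeR adjusted p values of 0.064 and 0.052 and 188 units passed in all. With single samples left out, the counts ranged from 0 to 2 past both thresholds and from 0 to 3 past the adjusted p. Both were 0 without SET2 KO sample 1, SET2 KO sample 3, or WT sample 3, and 1 member passed both without WT sample 1. These fits have fewer samples, and the number of units past the adjusted p ran from 81 to 788. Of the 27 tested members, 17 kept their sign in every alternative. The other 10 changed sign in at least 1 alternative. With single samples left out their log2 fold changes ranged from -0.16 to 0.0074 for ATG1, -0.32 to 0.048 for ATG3, -0.031 to 0.38 for ATG5, -0.072 to 0.24 for ATG7, -0.29 to 0.099 for ATG14, -0.019 to 0.22 for ATG19, -0.079 to 0.23 for ATG20, -0.17 to 0.084 for ATG21, -0.16 to 0.094 for ATG22, and -0.043 to 0.078 for ATG27. With thinned libraries ATG7, ATG20, and ATG27 had -0.012, -0.00051, and -0.013; ATG14 could not be tested there. The cause of these changes was not tested.

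The replicate number as a block gave 0 ATG genes past the adjusted p and 0 past both thresholds, with 75 units past the adjusted p in all. ATG9 then had a log2 fold change of 0.61 (edgeR adjusted p = 0.076) and ATG2 0.50 (adjusted p = 0.16). The deviations of same-numbered samples correlated at -0.32, -0.37, and -0.13 across units, and those of differently numbered samples at -0.11 to 0.33. With 3 samples per group, these values cannot show whether same-numbered cultures were handled together. The labels give only a replicate number. The fit with the block also has fewer residual degrees of freedom.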
